A study of Mus musculus with 9 samples.

Results

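Clustered narrow peaks are open chromatin regions that lie close to another open region. They were taken from a table of ATAC-seq peaks in mouse heart muscle cells. A peak belonged to this group if it lay on chromosomes 1 to 19, was narrower than 3000 bp and had at least 1 other peak of the table within 5000 bp. Of the 25915 peaks in the table, 2127 (8.21%) met this rule, and 21381 narrow peaks on the same chromosomes did not. Within the table, position and width alone chose the members, and differences between P1, P14 and P56 were not used. Every peak of the table had a mean count of at least 10, so counts did decide which peaks and neighbours could enter.

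ATAC-seq counts the cuts that a transposase makes in accessible DNA. The counts came from cardiomyocytes of CD1 (ICR) mice at postnatal day 1 (P1), day 14 (P14) and day 56 (P56), with 3 libraries at each age, described as biological triplicates. All 3 groups were of this strain, and the labels name neither a mutant allele nor a drug. Hearts were pooled, 12 for each P1 library and 6 to 7 for each P14 or P56 library, and nuclei carrying Pcm1, a centriolar satellite protein that coats the nuclear envelope of cardiomyocytes, were sorted. Surgery is mentioned in the labels, which do not state if any of these animals were operated on, and neither sex nor batch is labelled.

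Enhancers and promoters are bound by transcription factors that keep nucleosomes away, and several such elements often sit within a few kilobases of each other. Elements of a group can act on the same gene, and they can also serve different genes or open at different ages. Around birth the mouse heart shifts from glycolysis to fatty acid oxidation, its cardiomyocytes leave the cell cycle within the first weeks, and fetal isoforms of sarcomere proteins are replaced by adult ones. The question here was whether clustered peaks change together over these ages.

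Peak totals ran from 889605 to 1217798 counts in the P1 libraries, from 316311 to 559445 at P14 and from 604684 to 1143607 at P56, so P14 values were the least precise. Counts at the starts of 10 cardiomyocyte marker genes averaged 50.7 to 106 CPM (counts per 1000000 counts in a library) in the P1 libraries, 76.3 to 94.3 at P14 and 85.3 to 199 at P56. The fibroblast list of 5 genes averaged 35.3 to 52.5 CPM and the smooth muscle list of 4 genes 45.2 to 66.2 CPM over the 9 libraries. The endothelial list averaged 24.4 to 37.0 CPM, the leukocyte list 15.6 to 31.0, the glial list 14.5 to 23.9 and the erythroid list 6.23 to 17.7, where the median of all start regions was 15.7 to 20.5. No marker was at 0 in all libraries. The part of other cell types in the results was not tested. P56 replicate 2 stood apart from the other P56 libraries, in the direction opposite to P1 replicate 1. Over the table's peaks, the deviations of these 2 libraries from their stage means correlated at r = -0.50, and those of P1 replicate 3 and P56 replicate 2 at 0.489. The deviations of a stage's libraries cancel out for each peak, so these 2 values are not independent of each other. Results that rest on these libraries are given with and without them.

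The 2127 peaks were 614 to 2999 bp wide with a median of 1457 bp, against 1348 bp for the other narrow peaks. Their mean count over the 9 libraries had a median of 25.9 and ranged from 10.0 to 253.6. In all, 1921 of them formed 931 neighbourhoods, runs of clustered peaks with gaps of at most 5000 bp: 876 held 2 peaks, 51 held 3 and 4 held 4. The remaining 206 lay beside a peak of 3000 bp or more only. Gaps inside neighbourhoods had a median of 3453.5 bp, 159 of 990 gaps were under 1000 bp and 26 were under 100 bp. Chromosome 7 held 192 clustered peaks, 12.0% of its narrow peaks, and chromosome 1 had 7.27% of its narrow peaks in this group.

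A protein-coding transcription start lay in 482 clustered peaks (22.7%), while 906 (42.6%) lay inside a gene without covering its start and 739 (34.7%) outside genes. For the other narrow peaks the shares were 25.5%, 37.4% and 37.1%. Most neighbourhoods, 560 of 931, held no promoter peak, 325 held 1 and 46 held 2. Neighbourhoods in which no peak covered a protein-coding start were thus the larger part. Their peaks were not sorted by distance to a start, and peaks of 3000 bp or more were not counted in neighbourhoods. Gene spans and starts come from RefSeq on GRCm38.p6, which is the build of the peaks per the submitters' processing notes, and the gene table used gives spans only, so exons and introns were not told apart. Whether the table counts positions from 0 or 1 is not stated.

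Promoter sequence is shown for 5 genes whose start lies in a clustered peak that the results below turn on. Each line gives the 250 bases before the start, 5′ to 3′ on the gene's strand, from RefSeq on GRCm38.p6, and capitals mark matches to 11 short motifs searched on both strands. Tnnt1 encodes the slow skeletal isoform of troponin T, made in the fetal heart, and its window is chr7:4515976-4516225 on the minus strand. The Nmnat1 window, for a nuclear enzyme of NAD synthesis, is chr4:149485211-149485460 on the minus strand. Shld1, a subunit of the shieldin complex in DNA break repair, has chr2:132689907-132690156 on the plus strand. Nppb, the gene of brain natriuretic peptide, has chr4:147985650-147985899 on the plus strand. Actn2 encodes the Z-disc protein alpha-actinin 2 and has chr13:12340733-12340982 on the minus strand.
Tnnt1: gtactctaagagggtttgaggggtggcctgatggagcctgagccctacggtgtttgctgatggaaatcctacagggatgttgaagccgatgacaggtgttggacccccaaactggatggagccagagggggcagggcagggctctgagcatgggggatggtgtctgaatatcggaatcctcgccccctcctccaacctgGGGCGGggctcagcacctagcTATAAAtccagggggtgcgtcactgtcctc
Nmnat1: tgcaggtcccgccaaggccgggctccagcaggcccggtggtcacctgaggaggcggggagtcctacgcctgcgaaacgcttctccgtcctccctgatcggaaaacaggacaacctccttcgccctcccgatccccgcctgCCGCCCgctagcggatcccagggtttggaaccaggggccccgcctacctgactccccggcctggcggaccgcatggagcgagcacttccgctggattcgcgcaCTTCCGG
Shld1: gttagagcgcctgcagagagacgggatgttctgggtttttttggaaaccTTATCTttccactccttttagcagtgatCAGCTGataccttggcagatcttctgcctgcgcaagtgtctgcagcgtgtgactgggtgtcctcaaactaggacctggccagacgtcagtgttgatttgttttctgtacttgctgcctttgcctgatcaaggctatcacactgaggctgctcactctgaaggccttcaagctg
Nppb: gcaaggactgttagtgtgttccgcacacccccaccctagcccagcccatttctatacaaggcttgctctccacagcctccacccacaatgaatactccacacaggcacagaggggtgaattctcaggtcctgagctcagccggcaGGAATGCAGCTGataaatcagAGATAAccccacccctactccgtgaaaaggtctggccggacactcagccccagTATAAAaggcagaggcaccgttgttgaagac
Actn2: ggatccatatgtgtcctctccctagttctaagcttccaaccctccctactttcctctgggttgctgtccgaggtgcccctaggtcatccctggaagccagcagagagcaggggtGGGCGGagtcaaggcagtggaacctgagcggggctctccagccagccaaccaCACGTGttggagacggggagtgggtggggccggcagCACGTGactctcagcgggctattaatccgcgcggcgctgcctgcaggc
The Tnnt1 window held a TATAAA that begins 30 bases before the start and 1 GGGCGG, the core of an SP factor site. The Nppb window held a TATAAA that begins 31 bases before the start, and the TEAD factor motif GGAATG followed directly by the E-box CAGCTG, with the GATA factor motif AGATAA after them. The Nmnat1 window had 24 CpG sites, 1 GGGCGG and, at its end, 1 match to the ETS factor motif CCGGAAG, whereas the Shld1 window had 5 CpG sites, 1 AGATAA and 1 CAGCTG. The Actn2 window had 12 CpG sites, 1 GGGCGG and 2 copies of CACGTG, the E-box of clock factors.

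Over the whole group, 650 RefSeq windows, each of 250 bases before and 50 after a start, lay wholly inside 502 clustered peaks. Their median GC content was 63.0% and their median number of CpG sites 22, against 52.7% and 7 for all 32851 windows and 64.0% and 24 for windows in other narrow peaks. GGGCGG was found in 65.6% of the windows in clustered peaks, in 35.9% of all windows and in 70.7% of those in other narrow peaks. For TATAAA the shares were 7.56%, 13.6% and 4.93%, for AGATAA 6.33%, 11.2% and 4.01%, and for GGAATG 11.7%, 14.6% and 10.3%. CCGGAAG was in 18.5%, 8.91% and 18.7%, CAGCTG in 16.2%, 16.4% and 14.7%, and CACGTG in 9.72%, 7.17% and 10.3%. The estrogen-related receptor motif AAGGTCA was in 2.62% of the windows in clustered peaks, the AP-1 motif TGACTCA in 1.70%, the cyclic AMP response element TGACGTCA in 2.01% and the NRF1 motif in 2.31%. Clustered promoters were thus mostly CpG-rich like other promoters under narrow peaks. GC content of the windows was nearly unrelated to the change from P1 to P56 across the 502 peaks (r = 0.06, across peaks of the same libraries). It was related to deviations of single P1 libraries from their stage mean. There r was -0.22 in P1 replicate 1, 0.09 in replicate 2 and 0.18 in replicate 3. In the P14 and P56 libraries r was between -0.04 and 0.04. GC content of whole peaks was not read.

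Between P1 and P56, few clustered peaks changed beyond the spread between libraries. With edgeR's quasi-likelihood test and a Benjamini-Hochberg adjusted p below 0.05, 16 of 2126 clustered peaks tested (0.753%) were called, 11 higher and 5 lower at P56, where 0.444% of all peaks tested were called. In pooled nuclei, a change in how many nuclei have a region open and a change within each nucleus cannot be told apart. The share called was low in both sets, and an unadjusted p below 0.05 was reached by 351 clustered peaks (16.5%) against 16.0% of all peaks. When the counts of a neighbourhood were summed, 6 of 931 neighbourhoods (0.644%) were called, 4 higher and 2 lower, against 0.418% of all features in that fit. Library values did not overlap between P1 and P56 for 230 clustered peaks that were higher at P56 (10.8%, against 8.54% of all peaks) and for 155 that were lower (7.29%, against 10.1%). Single libraries moved these counts strongly. Without P56 replicate 2 no clustered peak and no neighbourhood was called, without P1 replicate 2 the counts were 2 and 1, without P56 replicate 3 they were 4 and 2, and without P56 replicate 1 they were 65 and 33. Without P14 replicate 3 they were 10 and 3, without P14 replicate 2 13 and 3, and without P1 replicate 3 18 and 10. Leaving out P1 replicate 1 and P56 replicate 2 together gave 61 clustered peaks, 31 higher and 30 lower, and 32 neighbourhoods. For fits without libraries, here and below, the share called over all peaks is not given. Their counts therefore do not tell if clustered peaks differed from the whole table.

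The steepest rise of a neighbourhood lay 5795 bp from Trim27, a ubiquitin ligase gene, at chr13:21169395-21173655. Its 2 peaks summed to 34.5, 35.5 and 45.8 CPM in the P1 libraries, to 47.3, 37.4 and 53.6 at P14 and to 76.1, 163 and 127 at P56. P56 was above the other ages in all 3 libraries and P14 overlapped P1. The mean rose from 38.6 ± 6.25 CPM (SD, n = 3) to 122 ± 43.5, a log2 fold change of 1.66 (SE 0.27, edgeR adjusted p = 0.00133). Both peaks, 1453 bp apart, rose on their own, by 1.47 for the first (adjusted p = 0.0168) and 1.82 for the second (0.00294). The sum kept its call in 8 of 9 fits that left out 1 library and lost it without P56 replicate 2 (1.37, adjusted p = 0.0941). Without P1 replicate 1 and P56 replicate 2 it was 1.25 (adjusted p = 0.000284).

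A neighbourhood inside Ttn, the gene of the giant sarcomere spring titin, also rose, at chr2:76907078-76914976. Its sum was 66.6, 63.2 and 81.8 CPM at P1, 103, 90.3 and 114 at P14 and 109, 242 and 140 at P56. Every P14 and P56 library lay above every P1 library, and P56 replicate 2 was far above the other P56 libraries. The mean went from 70.5 ± 9.90 to 164 ± 69.5 CPM (SD, n = 3), a log2 fold change of 1.22 (SE 0.25, edgeR adjusted p = 0.0115). The peak at chr2:76907078-76910071 rose by 1.13 (adjusted p = 0.0337) and the one at chr2:76913949-76914976, 3878 bp on, by 1.42 (0.0193). The sum lost its call without P1 replicate 2 (1.14, adjusted p = 0.0922) and without P56 replicate 2 (0.81, 0.269), and was 0.73 (0.0342) without P1 replicate 1 and P56 replicate 2.

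The other neighbourhoods that rose held promoters. At Shld1 (chr2:132688503-132696844) the sum was 52.6, 61.0 and 63.0 CPM at P1, 80.6, 81.0 and 85.2 at P14 and 98.4, 171 and 95.3 at P56. The ages did not overlap, and the log2 fold change from P1 to P56 was 1.06 (SE 0.26, edgeR adjusted p = 0.0347). Its promoter peak and the peak inside the gene, 4961 bp from the promoter peak, changed by 1.08 and 1.04. Neither was called alone (edgeR adjusted p = 0.0542 and 0.109). At the promoter shared by Nmnat1 and Lzic, which point away from each other, the sum with a peak inside Lzic was 56.7, 55.5 and 62.2 CPM at P1, 52.5, 68.5 and 41.0 at P14 and 104, 146 and 107 at P56. P14 overlapped P1 while P56 lay above both. This neighbourhood (chr4:149483828-149490547) had a log2 fold change of 1.04 (SE 0.25, adjusted p = 0.0385), with 1.02 and 1.08 in its peaks. The Shld1 call held in 2 of 9 fits without 1 library and the Nmnat1 call in 3 of 9. Without P56 replicate 2 they stood at 0.72 (adjusted p = 0.375) and 0.85 (0.269), and without P1 replicate 1 and P56 replicate 2 at 0.62 (0.107) and 0.80 (0.026).

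Both neighbourhoods that fell lay outside genes. One was 1799 bp from Klra7, a lectin-like receptor gene of natural killer cells, at chr6:130235121-130238818, with 103, 83.2 and 76.1 CPM at P1, 70.1, 87.2 and 44.2 at P14 and 43.3, 33.1 and 28.4 at P56. All P56 libraries were below all others, and the log2 fold change was -1.31 (SE 0.28, edgeR adjusted p = 0.0146). Its peaks, 77 bp apart, changed by -1.64 (adjusted p = 0.0295) and -1.13 (0.0685). Klra genes form a family of near-identical copies, so the placing of reads here is uncertain. The other was 49799 bp from 4930519L02Rik, at chr3:143090552-143092953, with 35.3, 53.3 and 71.2 CPM at P1, 31.5, 21.8 and 28.4 at P14 and 28.9, 18 and 15.0 at P56. Here P1 was above both later ages, whose libraries overlapped, and the log2 fold change was -1.36 (SE 0.33, adjusted p = 0.0347), with -1.09 and -1.69 in peaks 377 bp apart. The Klra7 call was lost without P1 replicate 2, P56 replicate 2 or P56 replicate 3 (largest adjusted p = 0.172) and the other in 6 of 9 such fits (0.254). Without P1 replicate 1 and P56 replicate 2 the values were -1.14 (0.00394) and -1.49 (0.000615).

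**Figure D1:**
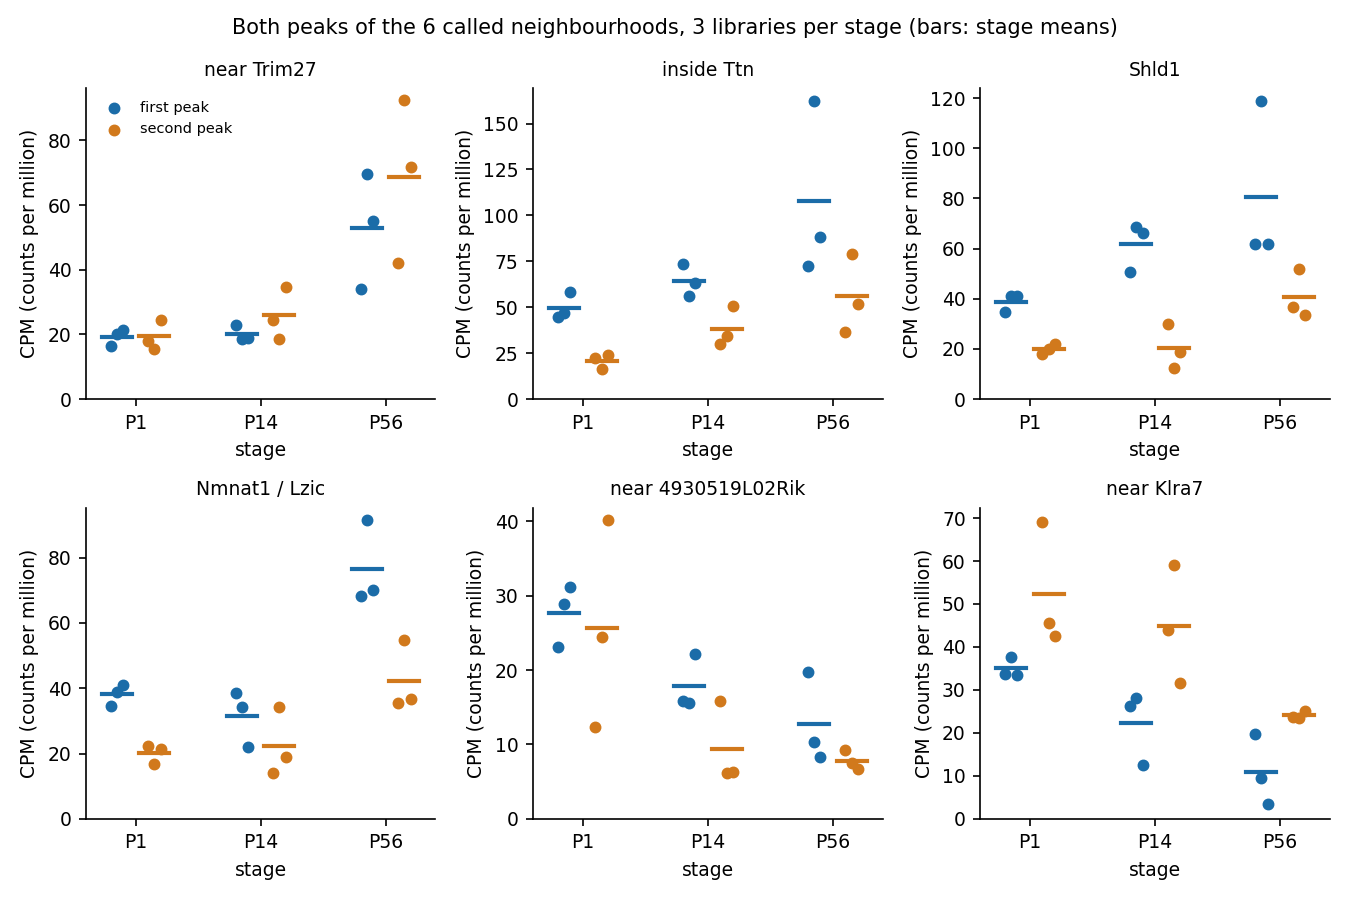
CPM (y axis) of the first and second peak of each of the 6 called neighbourhoods at P1, P14 and P56 (x axis), with a point per library and a bar for the mean of 3 libraries. The log2 values of both peaks from P1 to P56 have the same sign in each panel, such as 1.47 and 1.82 near Trim27, and the panels were selected by a call of the sum.

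Single clustered peaks were called where the neighbour was not. Trim7, another ubiquitin ligase gene, held a peak at chr11:48833416-48835032 with 13.2, 22.2 and 29.5 CPM at P1, 24.6, 34.2 and 28.4 at P14 and 43.3, 102 and 71.8 at P56. P56 lay above all other libraries, a log2 fold change of 1.75 (SE 0.32, edgeR adjusted p = 0.00315), and the peak 1387 bp away stood at 0.53 (adjusted p = 0.326). Acacb encodes the acetyl-CoA carboxylase that curbs the entry of fatty acids into mitochondria. Its peak at chr5:114174366-114176635 had 32.9, 51.0 and 49.1 CPM at P1, 49.1, 80.9 and 69.4 at P14 and 82.8, 114 and 91.8 at P56 (log2 fold change 1.13, SE 0.27, adjusted p = 0.0337), while the peak 667 bp before it was at 0.38 (0.618). A peak 14694 bp from Trim55, the gene of the sarcomere-associated ligase MuRF2, rose by 1.13 (adjusted p = 0.0337) at chr3:19627535-19629650. Peaks 13350 bp from Abt1 and 6574 bp from Ribc2 rose by 1.40 (0.0351) and 1.04 (0.0497), with 0.76 and 0.06 in their neighbours.

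Tnnt1 and Znrf1, a ubiquitin ligase gene, had called peaks beside a broad peak only. The Tnnt1 promoter peak (chr7:4515423-4517316), whose sequence is shown above, had 50.2, 79.9 and 82.7 CPM at P1, 73.7, 80.9 and 53.7 at P14 and 121, 231 and 120 at P56. P14 lay within the range of P1 and P56 lay above both, with a log2 fold change from P1 to P56 of 1.17 (SE 0.26, edgeR adjusted p = 0.0195). This peak also lies within 5000 bp of Tnni3, the adult cardiac troponin I gene. The Znrf1 peak (chr8:111623841-111625574) had 49.4, 36.6 and 45.8 CPM at P1, 66.6, 87.2 and 85.2 at P14 and 74.9, 153 and 109 at P56, so that it was already above P1 at P14 (P1 to P56: 1.35, SE 0.27, adjusted p = 0.00937).

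Of the 5 peaks that fell, 2 belong to the neighbourhoods above. The steepest fall was 32514 bp from Spata16, a gene known from sperm development, at chr3:26603241-26605106, with 34.6, 17.8 and 22.1 CPM at P1, 19.3, 12.5 and 6.31 at P14 and 10.5, 3.77 and 6.68 at P56. P56 was below P1 in all libraries (log2 fold change -1.88, SE 0.44, edgeR adjusted p = 0.0279). The peak 764 bp before it stood at -0.02 (adjusted p = 0.983). A peak inside Chia1, a chitinase gene, fell by 1.23 on the log2 scale (adjusted p = 0.0481) and a peak 42892 bp from Adam6a fell by 1.70 (0.032), with -0.78 and -0.41 in their neighbours. Without P56 replicate 2 none of the single peaks kept its call, and without P1 replicate 2 those of Trim7 and of the second peak near Trim27 did. Without P1 replicate 1 and P56 replicate 2 together, the Tnnt1 value was 0.57 (adjusted p = 0.114), the Abt1 value 0.69 (0.265), the Trim55 value 0.60 (0.0897) and the Spata16 value -1.18 (0.165), while Znrf1 stood at 1.11 (0.00242) and Trim7 at 1.10 (0.0156).

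A called peak was part of 12 pairs of adjacent peaks, and in 2 of these both peaks were called. In 11 of the 12 the values of both peaks had the same sign, and the exception lay between Dnajc5b and Trim55. Partners that were not called had a median of 0.47 in the called direction on the log2 scale. The pairs were selected by a call, so a smaller value in the partner follows from the selection.

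That locus on chromosome 3 was the only neighbourhood whose peaks were called as changing differently between P1 and P56. The test compared each peak's log2 change with that of its neighbourhood as a whole (edgeR's diffSpliceDGE), and 1 of 1919 peaks passed (0.0521%). An unadjusted p below 0.05 was reached by 36 peaks (1.88%), against 136 with limma's diffSplice. A well-calibrated test would reach more than 1.88% with no departure at all, so diffSpliceDGE was conservative for single peaks. The peak at chr3:19622316-19623174, 11454 bp from Dnajc5b, had 12.3, 27.7 and 25.4 CPM at P1, 8.77, 9.34 and 9.47 at P14 and 15.8, 9.42 and 8.35 at P56. Its partner 4361 bp on, toward Trim55, had 41.1, 82.1 and 96.6 CPM at P1, 59.6, 59.1 and 136 at P14 and 116, 203 and 159 at P56. The first overlapped between P1 and P56 and the second did not. Their log2 changes were -0.94 (adjusted p = 0.24, not called alone) and 1.13, and the first departed from the neighbourhood by -1.78 (diffSpliceDGE adjusted p = 0.0337). The F test of unequal change within a neighbourhood also called this locus alone among 930 (0.108%; adjusted p = 0.00955). The departure kept its call in 4 of 9 fits without 1 library, and lost it without replicate 2 of any age or without replicate 3 of P1 or P56 (largest adjusted p = 0.881). With limma's diffSplice in place of diffSpliceDGE, no peak was called from P1 to P56, this locus included. No peak was called as departing from P1 to P14 (0.0%) or from P14 to P56 (0.0%) by diffSpliceDGE, and none by limma's diffSplice. In diffSpliceDGE, 16 (0.834%) and 31 peaks (1.62%) had an unadjusted p below 0.05. With a test this conservative, absent calls do not show equal change.

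Other neighbourhoods had peaks with opposite values that the F test did not call. Near Chchd6, a gene of the mitochondrial inner membrane, peaks only 115 bp apart stood at -1.29 and 0.73 from P1 to P56 (F test adjusted p = 0.134). The first had 23.0, 35.5 and 17.2 CPM at P1 and 13.1, 7.54 and 10.0 at P56, without overlap. The second had 14.0, 15.5 and 15.6 at P1 and 25, 16.0 and 36.7 at P56, again without overlap and in the other direction. In Rcor1, the gene of a REST corepressor, peaks 4346 bp apart stood at 1.29 and -0.66 (0.149). At Otud1, a deubiquitinase gene, the promoter peak stood at 0.22 and the peak 3670 bp beyond it at -1.32 (0.212).

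Nppb is a marker of the fetal and stressed heart. Its promoter peak, whose sequence is shown above, had 53.5, 67.7 and 77.8 CPM at P1, 80.7, 68.5 and 72.6 at P14 and 76.2, 101 and 98.5 at P56. The peak 4586 bp before it had 51.8, 53.3 and 36.8 CPM at P1, 33.3, 18.7 and 15.8 at P14 and 38.1, 21.7 and 21.7 at P56. The promoter peak overlapped between P1 and P56 (log2 fold change 0.47, edgeR adjusted p = 0.356), and so did the distal peak (-0.80, 0.2). The F test of their difference had an adjusted p of 0.219, so unequal change was not established here.

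From P14 to P56 the smallest F test p belonged to Hsp90aa1, the inducible Hsp90 chaperone gene, where a peak inside the gene and a peak 3439 bp beyond it stood at 0.68 and -1.07 (adjusted p = 0.148). Near Tle3, a Groucho corepressor gene, the values were -0.79 and 1.42 (0.2). At Ehmt1, the gene of a histone H3 methyltransferase, the promoter peak and a peak inside neighbouring Arrdc1 stood at 0.72 and -0.82, with an adjusted p of 0.313, the same as for the neighbourhoods at Rhoq and Olfr288. From P1 to P14 the smallest adjusted p was 0.603, at neighbourhoods of Pgpep1, Nfam1, Gpam, Ehmt1 and Hsp90aa1 among others. Stim1, the calcium sensor of the endoplasmic reticulum, had 0.40 at its promoter and -0.94 at the peak 3139 bp on (0.646). An unadjusted F test p below 0.05 was reached by 6.67% of neighbourhoods from P1 to P56, 5.16% from P1 to P14 and 8.39% from P14 to P56.

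**Figure D2:**
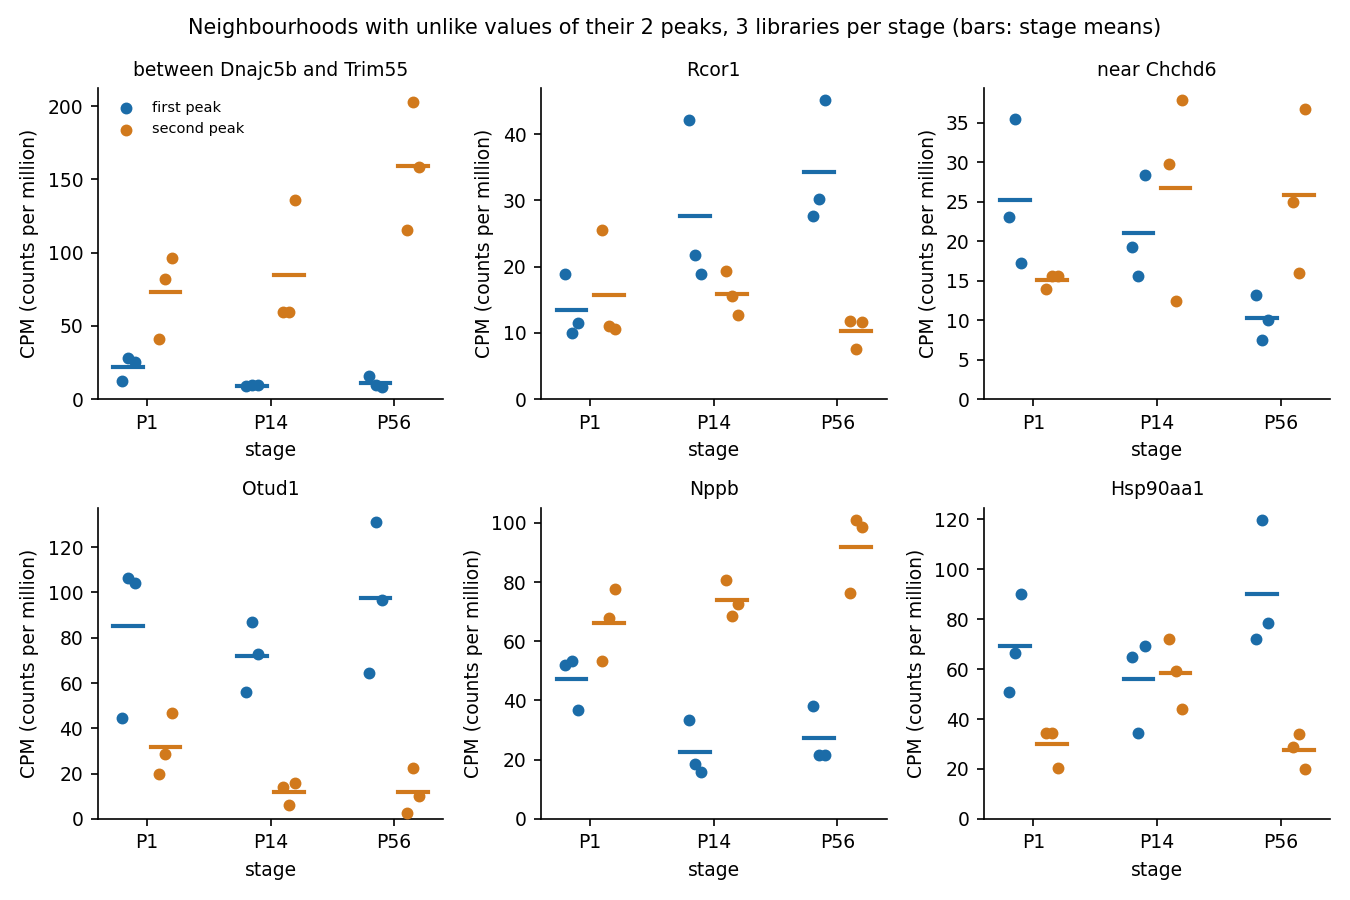
CPM (y axis) of the first and second peak of 6 neighbourhoods with unlike values at P1, P14 and P56 (x axis), with a point per library and a bar for the mean of 3 libraries. Between Dnajc5b and Trim55 the second peak rose by 1.13 on the log2 scale while the first stood at -0.94, and the other 5 panels show pairs whose difference was not called.

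Differences between neighbours were measured with wide intervals. From P1 to P56, the difference between the log2 changes of 2 adjacent peaks had a median standard error of 0.46. This gives an approximate 95% interval of 0.91 to either side. The errors of the 2 peaks were taken as independent, although neighbours shared deviations of single libraries, as given below. Differences themselves had a median size of 0.37, and 56 of 989 pairs differed by more than 1. From P14 to P56 the interval was 1.06 and 112 pairs differed by more than 1. By these intervals most neighbours could not be told apart, which does not show that they changed alike.

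From P1 to P14, 1 clustered peak was called (0.0470% of those tested, where 0.00773% of all peaks were called). It lay at chr2:98665793-98667822, 1034121 bp from the nearest gene, Lrrc4c, beside a broad peak. It had 230, 296 and 230 CPM at P1, 431, 710 and 679 at P14 and 327, 230 and 454 at P56, the highest mean count of all clustered peaks. Whether reads are placed reliably in this stretch was not tested. All P14 libraries were above all P1 libraries, and P56 overlapped both (P1 to P14: log2 fold change 1.26, edgeR adjusted p = 0.0244). The call held in 5 of 9 fits without 1 library. An unadjusted p below 0.05 was reached by 143 clustered peaks (6.73%, against 6.04% of all peaks), and no neighbourhood sum was called by edgeR, DESeq2 or limma-voom, with 43 at an unadjusted p below 0.05 in edgeR (0.00803% of all features were called). Library values did not overlap for 176 clustered peaks higher at P14 (8.28%, against 7.39%) and 125 lower (5.88%, against 5.64%). Without P1 replicate 1, 4 clustered peaks were called, and without that library and P56 replicate 2 together 97 clustered peaks and 44 neighbourhoods were. The shares of all peaks called in these fits are not given, so these counts say nothing particular to clustered peaks.

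From P14 to P56, no clustered peak was called by edgeR, DESeq2 or limma-voom, where edgeR called 0.00773% of all peaks. The smallest adjusted p was 0.128 in edgeR, at the Tnnt1 promoter, with a log2 fold change of 1.19. An unadjusted p below 0.05 was reached by 332 clustered peaks (15.6%, against 14.7% of all peaks) and by 143 neighbourhood sums, none of which was called (0.00803% of all features). Values did not overlap for 229 clustered peaks higher at P56 (10.8%, against 9.12%) and 180 lower (8.47%, against 10.0%). Without P56 replicate 1, 30 clustered peaks and 13 neighbourhoods were called.

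Over all pairs, adjacent clustered peaks had log2 changes of the same sign in 597 of 989 cases from P1 to P56 (60.4%), with 39.4% both above 0 and 20.9% both below. A clustered peak and the narrow peak 50 rows further along the chromosome shared a sign in 54.9% of 2011 cases. The correlation across pairs was r = 0.35 for adjacent peaks and 0.05 for peaks 50 rows apart. From P1 to P14 the shares were 52.9% and 50.1% with r = 0.07 and 0.01, and from P14 to P56 62.5% and 51.5% with r = 0.29 and 0.02. Adjacent peaks thus shared more of their change than distant ones in the comparisons with P56, and hardly more from P1 to P14. These pairs come from the same 9 libraries and the comparisons share stages, so no p is given and the comparisons are not independent of each other.

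The likeness was not particular to gaps within 5 kb. From P1 to P56, r was 0.47 for 159 pairs with gaps under 1 kb, 0.40 for 112 pairs at 1 to 2 kb and 0.31 for 718 pairs at 2 to 5 kb. Consecutive narrow peaks with wider gaps had r = 0.40 at 5 to 20 kb (4577 pairs), 0.36 at 20 to 100 kb (11133) and 0.33 beyond 100 kb (6736). Of these pairs, 65.6%, 62.9% and 65.5% had the same sign. They were chosen by gap alone, so a pair can include a clustered peak. From P14 to P56, r was 0.26 at 5 to 20 kb and 0.20 beyond 100 kb. Pairs with gaps of at least 1 kb alone gave 59.6% and r = 0.32. Beyond 100 kb, 44.7% of pairs were both below 0 and 20.8% both above, where adjacent clustered pairs had 20.9% and 39.4%. Of the peaks in these pairs, 38.1% and 59.3% were above 0. By r and by sign, clustered neighbours were about as alike as consecutive peaks much farther apart. The sets differed in the direction of change, so gap was not the only difference between them.

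**Figure D3:**
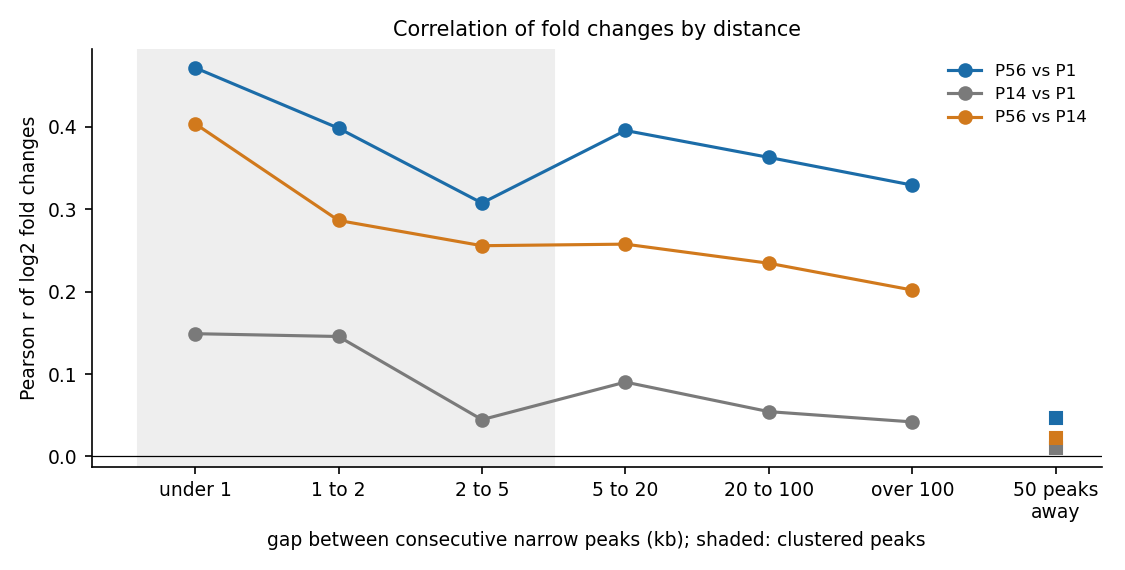
Pearson r of the log2 fold changes of consecutive narrow peaks (y axis) by the gap between them in kb (x axis), with a line for each of the 3 comparisons, and peaks 50 rows apart as the last point. From P1 to P56, r went from 0.47 under 1 kb to 0.31 at 2 to 5 kb and 0.33 beyond 100 kb. It was 0.05 at the last point, whose pairs all start at a clustered peak. The wider gaps hold other peaks, so the last step is not a change of distance alone.

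**Figure D4:**
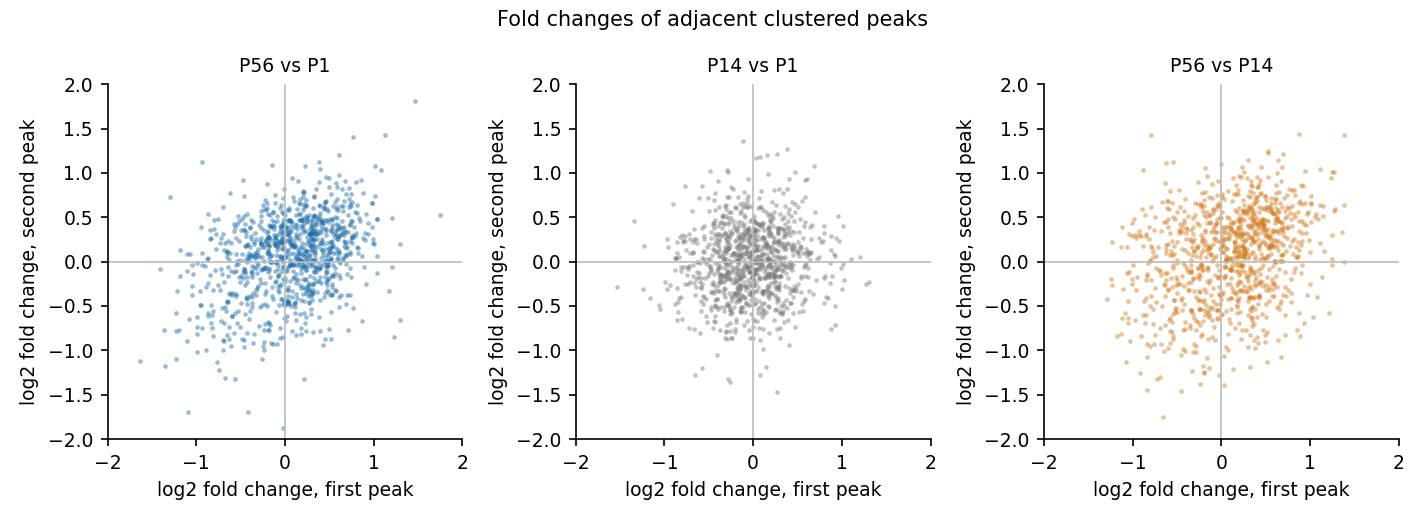
Log2 fold change of the second peak (y axis) against that of the first (x axis) for adjacent clustered peaks in each of the 3 comparisons, with a point per pair. The cloud leans along the diagonal from P1 to P56 (r = 0.35) and from P14 to P56 (0.29) and has no lean from P1 to P14 (0.07).

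The likeness also rested on P56 replicate 2. Without it the share of the same sign from P1 to P56 was 55.4% with r = 0.17, and from P14 to P56 53.8% with r = 0.11. Without P1 replicate 1 and P56 replicate 2 it was 56.2% (r = 0.16) and 53.7% (r = 0.11). Within a stage, the deviations of adjacent clustered peaks from their stage mean correlated at r = 0.43 in P56 replicate 2, 0.26 in P56 replicate 1, 0.20 in P1 replicate 1 and 0.19 in P1 replicate 3. In the other 5 libraries r was 0.02 to 0.12, and for peaks 50 rows apart it was between -0.04 and 0.03. Values of libraries of the same stage are not independent, as their deviations cancel out for each peak. Neighbours thus shared departures of single libraries as well as differences between ages, and the part of the former in the latter was not tested.

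**Figure D5:**
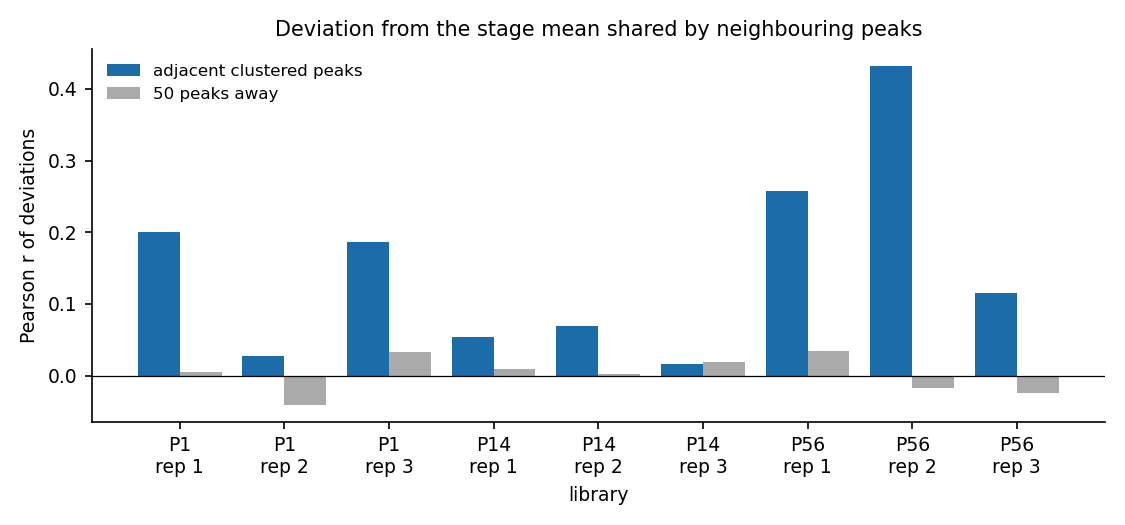
Pearson r (y axis) of the deviations from the stage mean of adjacent clustered peaks, and of peaks 50 rows apart, in each of the 9 libraries (x axis). The bar for adjacent peaks is highest in P56 replicate 2 (0.43) and lowest in P14 replicate 3 (0.02).

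Both peaks covered a promoter in 44 pairs, of which 75% shared a sign from P1 to P56 (r = 0.28) and 72.7% from P14 to P56. Of the peaks in these pairs, 78.4% had values above 0 from P1 to P56, which by itself makes like signs more common. From P1 to P56 a sign was shared by 59.5% of 333 pairs with 1 promoter (r = 0.28) and by 59.8% of 612 with none (r = 0.38). Clustered peaks and a broad neighbour shared a sign in 78.4% of 218 pairs from P1 to P56 (r = 0.64), 51.4% from P1 to P14 (0.11) and 72.9% from P14 to P56 (0.46). Among neighbourhoods of 2 peaks, 364 of 875 had both values above 0 from P1 to P56, 179 had both below and 332 were mixed. Of the 51 neighbourhoods of 3 peaks, 14 (27.5%) had all values on 1 side from P1 to P56, and of the 4 with 4 peaks 1 did. For 3 peaks the share was 23.5% from P1 to P14 and 49.0% from P14 to P56. Unrelated peaks also fall on 1 side at times, more so as 60.3% of clustered peaks were above 0 from P1 to P56. The share of peaks above 0 is not given for pairs with a broad neighbour.

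The neighbourhoods with most peaks showed no called change. At Zfp771 and Dctpp1, a zinc finger gene and a nucleotide hydrolase gene, all 4 peaks had values above 0 from P1 to P56 (0.37, 0.17, 0.64 and 0.32), and their sum stood at 0.43 (edgeR adjusted p = 0.327). At Ceacam15, an adhesion molecule gene, the sum of 4 peaks stood at -0.46 (0.313), with peaks from -1.08 to 0.17. Nt5dc3 (0.14), a run 309150 bp from Rasgef1b (-0.16) and Pdik1l (0.01) completed the 5.

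As a group, clustered peaks leaned toward P56. The log2 change from P1 to P56 was above 0 in 60.3% of them with a median of 0.12, against 52.4% and 0.03 for all peaks tested and 51.7% for other narrow peaks. Among clustered peaks the lean lay at promoters (73.7%, median 0.20) and inside genes (62.6%, 0.17), and those outside genes had 48.8% above 0 (-0.02). In pairs of consecutive promoter peaks over 100 kb apart, 66.5% of peaks were above 0. Over all clustered peaks the share above 0 shrank to 53.7% without P56 replicate 2 (all peaks 50.5%). Without P1 replicate 1 and P56 replicate 2 it was 49.5% (49.9%), and with scaling by library size alone 54.0% against 46.5%. From P1 to P14, 48.8% were above 0, with 36.7% of promoter peaks, and from P14 to P56 60.3%, with 77.6% of promoter peaks. Peaks with 7 to 14 other peaks within 100 kb had a median change from P1 to P56 of 0.19 (449 peaks) and those with 1 to 3 others -0.01 (688), and without P56 replicate 2 the former was 0.06.

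The share of each library's peak counts that fell in clustered peaks did not differ between ages beyond the spread between libraries. It was 7.57%, 7.96% and 8.12% at P1, 7.77%, 7.84% and 7.91% at P14 and 7.85%, 8.83% and 8.07% at P56, and P56 replicate 2 was the highest. The means were 7.88% ± 0.28, 7.84% ± 0.07 and 8.25% ± 0.52 (SD, n = 3), with an exact permutation p of 0.357 over all assignments of libraries to stages (two-sided F statistic). Members nearest the limit of the rule were 75 peaks whose closest neighbour was 4900 to 5000 bp away, with a median change from P1 to P56 of 0.19, and just outside it were 79 narrow peaks at 5001 to 5100 bp with 0.08.

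Genes of heart biology were read from lists, each gene with any clustered peak within 5 kb. Of 32 mature sarcomere genes, 5 had such peaks, among them Actn2, Myl2, Tnni3 and Ttn. All 10 of their peaks had values above 0 from P1 to P56, with a median of 0.88, and 3 rose: both in Ttn and the Tnnt1 promoter peak near Tnni3. The median was 0.60 without P1 replicate 1 and P56 replicate 2, 0.19 from P1 to P14 and 0.65 from P14 to P56. Actn2 had 3 peaks at 0.99, 0.22 and 0.33, the last at the promoter shown above, and a sum at 0.43 (edgeR adjusted p = 0.378), which was 0.096 without P56 replicate 2 and -0.16 without P1 replicate 1 and P56 replicate 2.

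Of 42 genes of oxidative metabolism, 9 had clustered peaks (Acadl, Atp5a1, Cox6a2, Cs, Esrrb, Lpl, Ppargc1a, Slc25a4 and Ucp3). Their 16 peaks had 15 values above 0 and a median of 0.40, and none was called. The median was 0.07 without P1 replicate 1 and P56 replicate 2. Lpl encodes lipoprotein lipase, which frees fatty acids for uptake, and its 2 neighbourhoods stood at 0.88 (edgeR adjusted p = 0.11) and 0.38 (0.467). Without P56 replicate 2 these were 0.38 and -0.091, and without P56 replicate 1 the first was 1.13 and was called (0.0197). Slc25a4, the gene of the heart's ADP/ATP carrier, stood at 0.31 (0.575) and at -0.22 without P56 replicate 2.

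Of 20 fetal contractile and stress genes, Actc1, Nppb and Tnnt1 had 3 peaks, of which that of Tnnt1 rose (median 0.54, or 0.24 without P1 replicate 1 and P56 replicate 2). Cardiac transcription factors had 5 of 39 genes (Irx5, Meis1, Myocd, Nr3c2 and Zbtb16) with 9 peaks, a median of 0.40 and none called, and the median was -0.10 without P1 replicate 1 and P56 replicate 2. The neighbourhoods of Zbtb16, Irx5 and Nr3c2, the gene of the mineralocorticoid receptor, stood at 0.54, 0.23 and 0.18. Of 33 calcium and ion handling genes, Cacnb2, Camk2d, Kcnd2 and S100a1 had 7 peaks with a median of -0.16 and no call (-0.45 without both libraries). Cacnb2, a calcium channel subunit gene, had a promoter peak at -0.16. A peak inside the gene, 3031 bp from the promoter peak, stood at -0.92 (edgeR adjusted p = 0.19).

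Growth genes had 5 peaks at 3 of 31 genes (Igf1r, Insr and Vegfb), with a median of -0.28 and no call (-0.47 without both libraries). The Igf1r neighbourhood at the receptor's promoter stood at -0.48 (edgeR adjusted p = 0.352). Cell cycle genes had 6 peaks at Ccnd1, Myc and Pcna (3 of 30, median 0.24), immediate early genes 5 at Fos and Nr4a1 (2 of 18, median 0.39) and clock genes 2 at Rora (1 of 19, median 0.58), none of them called. These medians were 0.0017, 0.092 and 0.39 without P1 replicate 1 and P56 replicate 2. They were 0.13, 0.089 and 0.48 without P56 replicate 2 alone. Myc stood at -0.08, Fos at 0.58 and Nr4a1 at 0.20 as sums. Beside these, the medians over all peaks tested and over all clustered peaks were 0.03 and 0.12. Of the lists for other cell types, leukocytes had 1 clustered peak (Cd68, 0.51, not called, and -0.12 without P1 replicate 1 and P56 replicate 2), and the endothelial, erythroid, fibroblast, glial and smooth muscle lists had none.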

How the data were processed

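ATAC-seq was measured in 9 libraries, 3 at each of 3 ages. The authors deposited unnormalised read counts per peak and per transcription start region. The build GRCm38, the aligner BWA 0.7.10, the peak caller MACS 1.4.0, featureCounts 1.4.2 and, besides these, bedtools 2.26, SAMtools 1.3.1 and bcl2fastq 2.17.1.14 are listed in the submitters' processing notes; their settings are not given in the sources used here. Every deposited peak had a mean count of at least 10, so weaker peaks were not analysed here.

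One edgeR model (version 4.0.16, R 4.3.3) with stage as its only term covered the whole table, with TMM scaling and the default expression filter (25885 peaks kept). Stages were compared by two-sided quasi-likelihood tests, and p-values were adjusted by Benjamini-Hochberg over the table. In a second fit the counts of each neighbourhood were summed (24896 features). diffSpliceDGE compared peaks within neighbourhoods. CPM uses TMM-scaled peak totals. The steps were tested on simulated data. P-values measure the spread between these libraries. limma 3.58.1 and DESeq2 1.42.0 served as alternatives.

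Named neighbourhoods were the 10 largest called rises and falls of sums from P1 to P56 without overlap between stages (up to 5 each in the other comparisons), the 5 with most peaks, up to 5 with the least equal peaks in each comparison and up to 3 for each gene list. Named single peaks were the 5 largest rises and falls; the remaining calls were named after their values were seen. The members, lists and rule were chosen with earlier results of these data known. One gene of the lists is not reported here.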

Additional observations from a re-analysis of the deposited data

How the results depend on the processing

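The number of clustered peaks called from P1 to P56 was 16 and ran from 0 to 65 without 1 library; it was 6 with loess offsets, 5 with a mean count of at least 20, 9 with the 2 stages alone, 61 without P1 replicate 1 and P56 replicate 2 (an alternative chosen after seeing the data), 30 with neighbours within 10000 bp, 7 with DESeq2, 7 with limma-voom and 3 at an adjusted p below 0.01. Neighbourhood sums called were 6, ran from 0 to 33 without 1 library, and were 2, 3 and 32 with loess offsets, the 2 stages alone and without both libraries, 3 and 12 with neighbours within 2000 and 10000 bp, and 1 at an adjusted p below 0.01. Departing peaks were 1, ran from 0 to 1 without 1 library, and were 0 with a mean count of at least 20, the 2 stages alone, neighbours within 2000 or 10000 bp, or limma's diffSplice, and 2 without both libraries. From P1 to P14, clustered calls were 1, ran from 0 to 4 without 1 library, and were 0 with library size alone, loess offsets, a mean count of at least 20 or an adjusted p below 0.01, 2 within 10000 bp and 97 without both libraries, where 44 sums were called. From P14 to P56, clustered calls and sums ran from 0 to 30 and 0 to 13 without 1 library and were 1 and 1 with the 2 stages alone; 2 peaks departed with neighbours within 10000 bp. The share of pairs with the same sign from P1 to P56 (60.4%) ran from 55.4% to 63.6% without 1 library and was 56.2% without both libraries, 64.3% within 10000 bp and 71.4% where both peaks had a mean count of at least 50 (14 pairs). From P1 to P14 it ran from 51.7% to 54.3% and was 57.2% within 2000 bp and 64.3% at a mean of at least 50; from P14 to P56 it ran from 53.8% to 64.1% and was 53.7% without both libraries and 71.4% at a mean of at least 50. The difference in the share of counts between P56 and P1 (0.36 points) ran from 0.0738 to 0.565 points without 1 library. Of the 24 called peaks, sums and departures, all kept their call with RLE scaling and with no filter, 21 with library size alone, 13 with the 2 stages alone, 12 of 23 with limma-voom, the 12 to which DESeq2 gave an adjusted p (its filter on low counts left the other peaks and sums without one), 7 of 23 with loess offsets (diffSpliceDGE could not be fitted with them) and 1 without P56 replicate 2. The cause was not tested.

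With the replicate number as a block, 66 clustered peaks and 41 sums were called from P1 to P56 and 4 and 2 from P14 to P56, and all 24 calls held. Same-numbered libraries deviated together at r = -0.18 to 0.44, not above 0.1 in every pair and not always best with their own number, so the numbers are not taken to pair the samples.

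Some sums that were not called changed sign from P1 to P56. With library size alone, Ehmt1 was -0.0056, Pdik1l -0.069, Camk2d -0.041 and Nppb -0.0015; with a mean count of at least 20 they were -0.049, -0.10, -0.083 and -0.041. With loess offsets the values were -0.11 for Ehmt1, -0.080 for Stim1, -0.13 for Rhoq, -0.13 for Nt5dc3, -0.29 for Pdik1l, -0.062 for Camk2d, -0.060 for Nr3c2, -0.15 for Nppb and -0.078 for Nr4a1. Without P1 replicate 1 and P56 replicate 2 they were 0.014 for Chchd6, -0.38 for Gpam, -0.11 for Hsp90aa1, -0.19 for Rhoq, 0.13 for Tle3, -0.18 for Olfr288, -0.068 for Nt5dc3, 0.022 for Rasgef1b, -0.54 for Pdik1l, -0.24 for Camk2d, -0.26 for Irx5, -0.17 for Nr3c2, -0.030 for Nppb, -0.0039 for Nr4a1, -0.16 for Actn2, -0.32 for the Lpl neighbourhood at 0.38 and -0.57 for Slc25a4. Without 1 library the values ran from -0.17 to 0.19 for Camk2d, -0.39 to 0.082 for Chchd6, -0.052 to 0.16 for Ehmt1, -0.20 to 0.44 for Gpam, -0.025 to 0.40 for Irx5, -0.43 to 0.046 for Kcnd2, -0.091 to 0.62 for this Lpl neighbourhood, -0.16 to 0.063 for Myc, -0.045 to 0.26 for Nt5dc3, -0.43 to 0.18 for Otud1, -0.30 to 0.26 for Pdik1l, -0.27 to 0.035 for Rasgef1b, -0.053 to 0.27 for Rhoq, -0.22 to 0.63 for Slc25a4 and -0.37 to 0.095 for Tle3.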
